A study of Mus musculus with 6 samples.

Results

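The 10 genes described here encode cytochrome P450 enzymes of family 4 in the mouse liver: *Cyp4a10*, *Cyp4a14*, *Cyp4a12a*, *Cyp4a12b*, *Cyp4a31*, *Cyp4a32*, *Cyp4f13*, *Cyp4f14*, *Cyp4f15* and *Cyp4v3*. They were taken by gene identifier from a table of 56691 Ensembl genes, and 8 of them were among the 10866 genes that passed the filter for testing (a mean FPKM of at least 1). All 10 were found in the table, which lists 27 genes of the family when pseudogenes and antisense genes are counted. Liver RNA of pregnant dams was sequenced in 2 groups of 3 dams each. KPF dams (replicates 1, 2 and 3) were h*Chrebp* KO, that is, *Chrebp* flox/flox with an Alb-Cre transgene, whose albumin promoter drives the recombinase in hepatocytes. WPF dams (replicates 2, 3 and 4) are labelled WT, and the study's methods describe them as *Chrebp* flox/flox without Cre. Both groups were mated with *Chrebp* flox/flox males, ate a high-fructose diet (HFrD) during pregnancy, and were killed on Day 17. The study calls the knockout hepatocyte-specific, and recombination in other cells of the liver was not tested here. In whole liver RNA, fewer cells of a type and less RNA per cell cannot be told apart. The comparison addresses what the lack of hepatocyte ChREBP, a transcription factor activated by sugar metabolites, went along with in these livers.

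Enzymes of family 4 put a hydroxyl group on the terminal (omega) carbon of fatty acids. Alcohol and aldehyde dehydrogenases then turn the omega-hydroxy acid into a dicarboxylic acid, which is shortened in peroxisomes. This pathway runs beside mitochondrial beta-oxidation and takes a larger share when fatty acids are plentiful, as in fasting. The *Cyp4a* genes are textbook targets of the nuclear receptor PPARα in mouse liver, and CYP4A enzymes hydroxylate medium- and long-chain fatty acids, arachidonic acid among them. CYP4F enzymes are known for hydroxylating leukotriene B4 and very long-chain fatty acids. *Cyp4v3* is the mouse counterpart of human *CYP4V2*, a fatty acid hydroxylase known from a retinal dystrophy. *Cyp4a12a* and *Cyp4a12b* are known as genes that male mice express far more than females.

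In the coordinates of the deposited table, whose build the submitters' notes give as GRCm39, the 6 *Cyp4a* genes lie within 322.6 kb of chromosome 4, between 115156243 and 115478799. The 3 *Cyp4f* genes lie within 261.8 kb of chromosome 17, between 32904601 and 33166376. *Cyp4v3* is on the minus strand of chromosome 8, between 45757981 and 45786253. Some of these genes are near copies, which bears on how reads could be assigned. The following 60 bases of coding sequence, taken from the GENCODE transcripts of the older build GRCm38, hold the codon of the cysteine that binds the heme iron, the part of the enzyme that all P450s share. Capitals mark bases that differ from *Cyp4a10*.
Cyp4a10: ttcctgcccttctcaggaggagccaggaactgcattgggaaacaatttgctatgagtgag
Cyp4a31: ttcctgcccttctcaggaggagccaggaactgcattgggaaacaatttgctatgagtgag
Cyp4a32: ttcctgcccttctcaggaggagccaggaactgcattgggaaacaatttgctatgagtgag
Cyp4a12a: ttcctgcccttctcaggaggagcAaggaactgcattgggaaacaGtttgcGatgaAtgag
Cyp4a12b: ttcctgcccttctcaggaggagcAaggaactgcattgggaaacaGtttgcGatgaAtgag
Cyp4a14: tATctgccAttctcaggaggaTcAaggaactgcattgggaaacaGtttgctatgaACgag
Cyp4f14: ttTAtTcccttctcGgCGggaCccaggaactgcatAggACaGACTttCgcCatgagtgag
*Cyp4a10*, *Cyp4a31* and *Cyp4a32* were identical over these bases, and so were *Cyp4a12a* and *Cyp4a12b*. *Cyp4a14* differed from *Cyp4a10* at 8 of the 60 bases and *Cyp4f14* at 16. Over the whole coding sequence, taken as the longest open reading frame of each gene's transcripts, *Cyp4a10* was 97.2% identical to *Cyp4a32*, 96.6% to *Cyp4a31* and 75.6% to *Cyp4a14*. *Cyp4a12a* and *Cyp4a12b* were 98.5% identical. When the transcripts were cut into windows of 100 bases, 12.2% of the windows of *Cyp4a10* also occurred in another gene's transcripts, against 18.2% for *Cyp4a32*, 7.33% for *Cyp4a31* and 35.8% for *Cyp4a12a*. None of the windows of *Cyp4a14*, *Cyp4f13*, *Cyp4f14* or *Cyp4f15* did. Counts of the 3 near copies *Cyp4a10*, *Cyp4a31* and *Cyp4a32* are therefore uncertain where reads fall on shared stretches, as are those of the *Cyp4a12* pair, and the setting for such reads is not given in the sources used here.

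RefSeq promoters (build GRCm38.p6, 250 bases before to 50 after the start) were given for 5 of the 10 members, *Cyp4a32*, *Cyp4f13*, *Cyp4f14*, *Cyp4f15* and *Cyp4v3*, with 8 entries in all. Several of the entries are overlapping stretches at *Cyp4f14*, so the 8 are not independent, and *Cyp4a32* is the only *Cyp4a* gene among them. The letters AGGTCA, a half-site of nuclear receptors, were in 0 of the 8 entries on either strand, and in 16.3% of the 32851 promoters of the table. Its direct repeat with 1 base between (DR1), which contains the half-site, was in 0.0396% of all promoters and in none of the 8.

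The libraries held between 10694496 and 14496630 counted reads. Hepatocyte markers, albumin foremost, summed to between 81609 and 174976 CPM, which are read counts divided by each library's total and its TMM factor from edgeR, in every library. 2 libraries stood apart. KPF replicate 2 had 3420 CPM of 7 striated muscle markers, against 4.79 to 11.7 CPM in the other libraries. WPF replicate 4 went against its label in the 18 ChREBP target genes, which summed to 4580 CPM there, to 21405 and 26399 CPM in WPF replicates 2 and 3, and to between 4588 and 4946 CPM in KPF. *Mlxipl*, the gene of ChREBP, was counted at 179, 698 and 849 CPM in KPF versus 964, 1261 and 877 CPM in WPF (log2 fold change -0.84, SE 0.53, adjusted p = 0.584 in edgeR's quasi-likelihood test). Only exon 2 was floxed, so most of these reads come from outside the deleted part and the total does not check the deletion. Most stellate and fibroblast markers were also higher in KPF. Their summed levels were 448, 733 and 184 CPM against 110, 137 and 125 CPM in WPF. Of the 10, 6 were called higher by the rule given with the member calls, against 5.83% of all tested genes. *Lrat* went the other way, with a log2 fold change of -0.35 (SE 0.33). *Des*, a muscle gene as well, made up 485 CPM of the 733 in KPF replicate 2, and without it the sums were 394, 248 and 174 CPM in KPF versus 99.99, 128 and 118 CPM in WPF, with 5 of 9 called higher. Of 3 tested adipocyte markers 2 were called higher, *Fabp4* and *Cfd*. *Cfd* was counted at 4.19, 17.2 and 1.25 CPM in KPF versus 0, 0.14 and 0 CPM in WPF. The part of other cells in the member values was not tested, so the log2 fold change of each tested member is also given without KPF replicate 2 and without WPF replicate 4.

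*Cyp4a10* was the most abundant member per transcript length. Levels are compared between genes as FPKM, the count divided by exonic length and library total. The mean over the 6 libraries was 259 FPKM for *Cyp4a10*, 86.3 for *Cyp4a14*, 67.5 for *Cyp4f15*, 36.5 for *Cyp4f14*, 19.9 for *Cyp4a31*, 18.2 for *Cyp4f13*, 15.2 for *Cyp4v3* and 6.01 for *Cyp4a32*. *Cyp4a12a* (0.22) and *Cyp4a12b* (0.025) were far below. Not every step of this order held in each library. *Cyp4a10* was above *Cyp4a14*, *Cyp4f15* above *Cyp4f14*, and *Cyp4a32* above *Cyp4a12a* in 6 of 6 libraries. *Cyp4a14* was above *Cyp4f15*, *Cyp4a31* above *Cyp4f13*, and *Cyp4f13* above *Cyp4v3* in 4 of 6 only, so these neighbours cannot be ordered beyond the spread between dams.

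**Figure D1:**
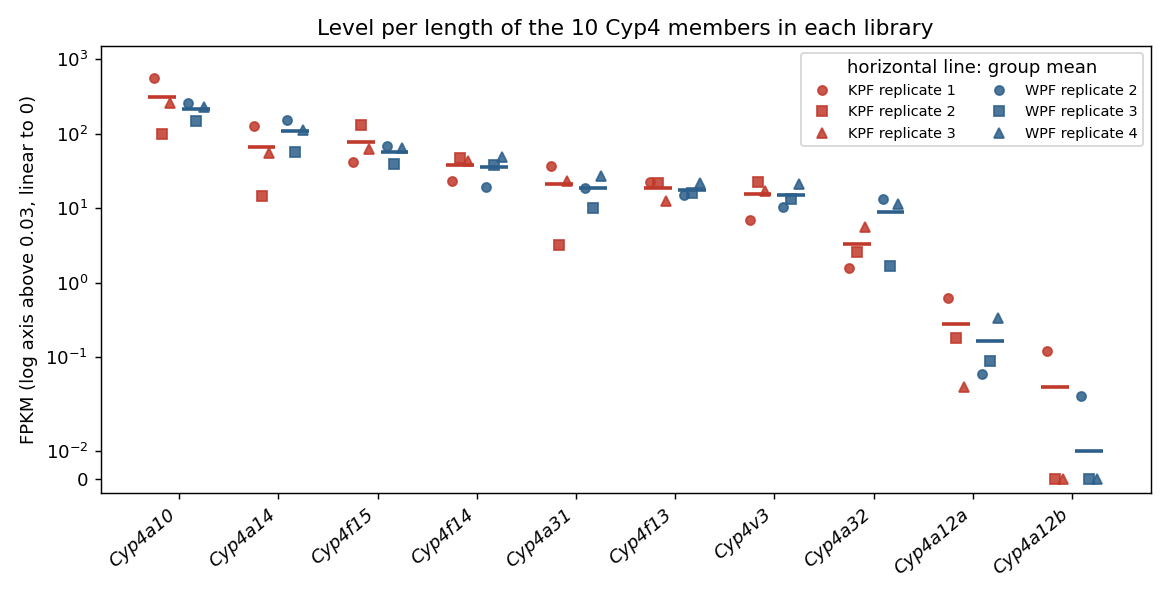
FPKM (log axis above 0.03, linear below) of the 10 members, ordered by mean level, with 1 point per library and a line at each group's mean; KPF is red and WPF blue. The points of both groups overlap for every member, and the *Cyp4a* genes spread most, with KPF replicate 2 (red squares) lowest for *Cyp4a10*, *Cyp4a14* and *Cyp4a31*.

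No member was called in KPF against WPF. A gene was called when its unadjusted p was under 0.05 and its change at least 1.5-fold; 9.81% of all tested genes were called, 5.83% higher and 3.98% lower in KPF, and no gene had an adjusted p under 0.05 (10.8% of genes had an unadjusted p under 0.05). 0 of the 8 tested members had groups without overlap, against 15.6% of all tested genes (7.45% with KPF higher and 8.15% with KPF lower). The median log2 fold change of the 8 tested members was 0.24, against 0.02 over all tested genes. Of the 8 estimates 6 were positive, against 5585 of 10866 over all tested genes. The same test gave 5 genes an adjusted p under 0.05 without WPF replicate 4, and DESeq2 gave 156 on all 6 libraries, but no member was among them in either.

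*Cyp4a10*, a PPARα-inducible omega-hydroxylase of mouse liver, was counted at 1208, 210.5 and 597 CPM in KPF replicates 1, 2 and 3. In WPF replicates 2, 3 and 4 it was counted at 619, 284 and 408 CPM. KPF held both the highest and the lowest library, and the WPF libraries lay between them. The log2 fold change was 0.62 (SE 0.60, 95% interval -0.77 to 2.02, adjusted p = 0.722 by edgeR, exact permutation p = 0.7). Without KPF replicate 2 it was 1.05 (edgeR, unadjusted p = 0.0485, adjusted p = 0.503), the only setting in which *Cyp4a10* was called. It was 0.57 without WPF replicate 4 and -0.11 without KPF replicate 1. The estimate for this gene thus turned on which KPF dam was in the fit.

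*Cyp4a14*, a nearby gene on the opposite strand and another PPARα target, was counted at 336, 38.3 and 157 CPM in KPF. In WPF it was counted at 451, 137 and 245 CPM. The groups overlapped, and KPF replicate 2 was again the lowest library. Its log2 fold change was -0.64 (SE 0.74, 95% interval -2.36 to 1.07, adjusted p = 0.766 by edgeR, exact permutation p = 0.5). It was -0.17 without KPF replicate 2 and -0.73 without WPF replicate 4. Without KPF replicate 1 it was -1.50 and without WPF replicate 2 it was -0.11, with the same sign in all 15 alternative settings.

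*Cyp4a31*, a near copy of *Cyp4a10*, was counted at 93.9, 7.94 and 64.9 CPM in KPF. In WPF it was counted at 53.1, 23.4 and 57.7 CPM. It followed the same order of KPF libraries as *Cyp4a10* and *Cyp4a14*, with replicate 1 highest and replicate 2 lowest. It had a log2 fold change of 0.31 (SE 0.75, 95% interval -1.44 to 2.06, adjusted p = 0.893 by edgeR) and it reversed under limma, with the replicate number as a block and without KPF replicate 1. It was 0.83 without KPF replicate 2 and 0.53 without WPF replicate 4. Adding up the counts of *Cyp4a10*, *Cyp4a31* and *Cyp4a32* gave a log2 fold change of 0.57 (SE 0.60), a sum that would still lack any shared reads left out of the counting.

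*Cyp4a32*, the least abundant of the tested members, was counted at 2.48, 3.97 and 9.61 CPM in KPF. In WPF it was counted at 22.6, 2.39 and 15.0 CPM. These values rest on 26 to 261 reads per library. WPF replicates 2 and 4 were above every KPF library, while WPF replicate 3 was the lowest of all 6. The estimate in log2 was -1.31 (SE 0.79, 95% interval -3.14 to 0.52, adjusted p = 0.573 by edgeR, exact permutation p = 0.5), the largest in size among the tested members. Without WPF replicate 3 it was -1.81 and the gene was called (unadjusted p = 0.0162, adjusted p = 0.820 in edgeR), as it was with no filter on low values (-1.38, unadjusted p = 0.0175). Leaving out WPF replicate 2 gave -0.70, leaving out KPF replicate 3 gave -2.04, and the replicate number as a block gave -0.31, none of them called. It was -1.14 without KPF replicate 2 and -1.22 without WPF replicate 4.

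*Cyp4a12a* and *Cyp4a12b* were close to the limit of detection in these female livers. *Cyp4a12a* had 16, 5 and 1 reads in KPF and 2, 3 and 12 reads in WPF. *Cyp4a12b* had 3 reads in KPF replicate 1, 1 read in WPF replicate 2 and 0 reads in the other 4 libraries, where a count of 0 allows up to between 0.175 and 0.288 CPM (3 reads, counting error only). Both were below the FPKM minimum and have no adjusted p. Their reads added up to 19, 5 and 1 in KPF and 3, 3 and 12 in WPF, and a difference was not detectable at this depth (log2 fold change of the sum 0.94, SE 0.98).

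Among the *Cyp4f* genes, *Cyp4f15* was the most abundant and the most variable. It was counted at 95.9, 299.7 and 156 CPM in KPF versus 177, 82.8 and 122 CPM in WPF. KPF replicate 2, the lowest library for *Cyp4a10*, was the highest for *Cyp4f15*. KPF minus WPF came to 0.53 on the log2 scale (SE 0.46, 95% interval -0.54 to 1.61, adjusted p = 0.693 by edgeR) with -0.02 when KPF replicate 2 was left out and 0.50 without WPF replicate 4.

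*Cyp4f14*, a leukotriene B4 omega-hydroxylase, was counted at 56.2, 115 and 114 CPM in KPF versus 52.5, 85.7 and 99.9 CPM in WPF. Each group had 1 low library, KPF replicate 1 and WPF replicate 2, and the rest overlapped. The log2 fold change was 0.26 (SE 0.37, 95% interval -0.59 to 1.11, adjusted p = 0.809 by edgeR). It was 0.09 without KPF replicate 2 and 0.45 without WPF replicate 4. *Cyp4f13*, a relative in the same cluster, was counted at 100.4, 97.2 and 61.1 CPM in KPF versus 75.0, 65.5 and 82.2 CPM in WPF. It was the steadiest member, with a log2 fold change of 0.22 (SE 0.26, 95% interval -0.39 to 0.83, adjusted p = 0.777 by edgeR), and only 29.7% of genes spread less than it within WPF. Its estimate was 0.12 without KPF replicate 2 and 0.29 without WPF replicate 4.

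*Cyp4v3* was counted at 26.9, 86.1 and 70.9 CPM in KPF versus 45.0, 47.0 and 67.4 CPM in WPF. It overlaps *Gm45753* on the same strand, which had 1 read in all 6 libraries together. KPF held the lowest and the 2 highest libraries. For *Cyp4v3* the log2 fold change was 0.21 (SE 0.42, 95% interval -0.77 to 1.18, adjusted p = 0.868 by edgeR), with -0.13 without KPF replicate 2, 0.41 without WPF replicate 4 and small negative values under limma.

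**Figure D2:**
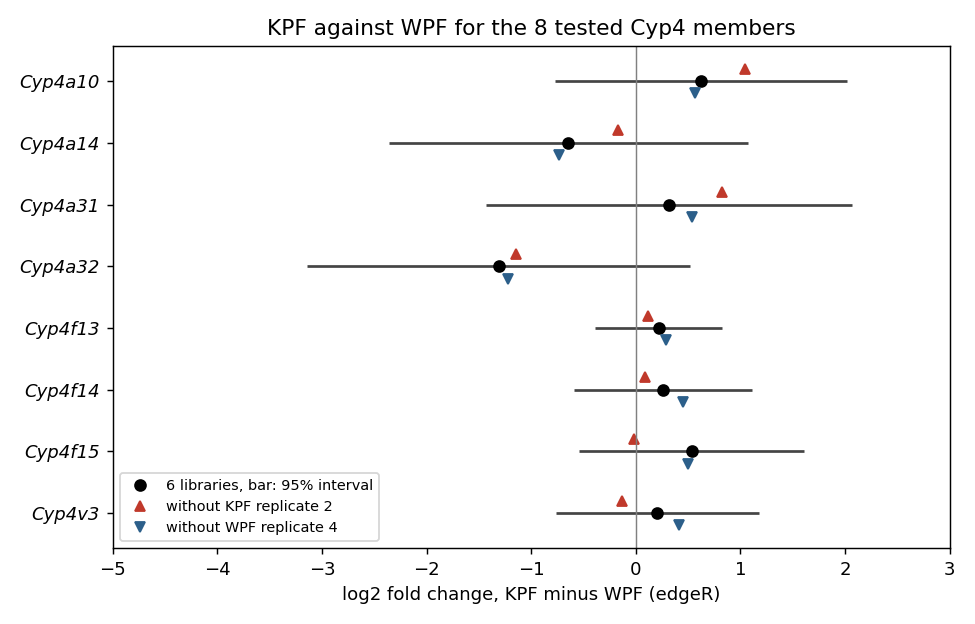
Log2 fold change (KPF minus WPF, edgeR) of the 8 tested members: black points with 95% intervals from all 6 libraries, red triangles without KPF replicate 2, blue triangles without WPF replicate 4. Every interval crosses 0; leaving out KPF replicate 2 moved *Cyp4a10* to 1.05 and *Cyp4f15* to -0.02.

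The spread between dams of the same group set the limits of these comparisons. In KPF, the highest library exceeded the lowest 5.74-fold for *Cyp4a10*, 8.77-fold for *Cyp4a14* and 11.8-fold for *Cyp4a31*, against a median of 1.55-fold over the 7939 genes with a mean count of at least 100. In WPF these spreads were 2.18-, 3.30- and 2.47-fold, against a median of 1.40-fold. In terms of rank, 98.2% of genes spread less than *Cyp4a14* within KPF and 95.8% within WPF. *Cyp4f13* was ordinary, with 57.1% of genes spreading less in KPF. In both groups the 4 tested *Cyp4a* genes spread more than any tested *Cyp4f* gene or *Cyp4v3*.

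The make-up of the family also differed between libraries. The 10 members summed to 822, 343 and 471 FPKM in KPF and to 560, 322 and 533 FPKM in WPF. The 6 *Cyp4a* genes made up 88.7%, 35.0% and 71.8% of that sum in KPF and 79.7%, 66.7% and 71.0% in WPF. KPF replicate 2 was the only library in which the 3 *Cyp4f* genes (200.1 FPKM) together exceeded the *Cyp4a* genes (120.0 FPKM).

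**Figure D3:**
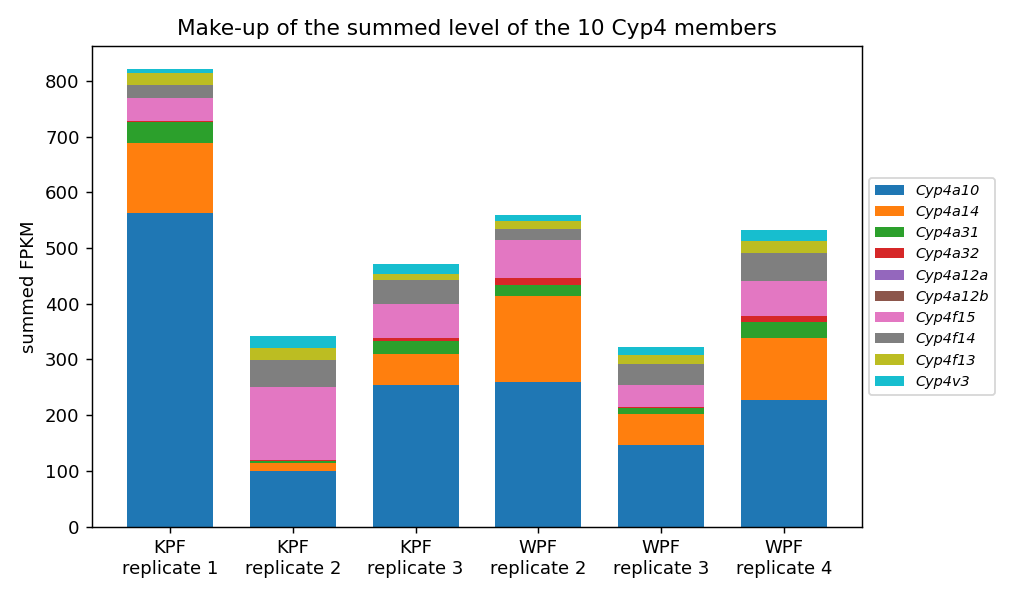
Summed FPKM of the 10 members in each library, stacked by member from *Cyp4a10* at the bottom to *Cyp4v3* at the top. *Cyp4a10* is the largest part everywhere but in KPF replicate 2, where *Cyp4f15* is larger; *Cyp4a12a* and *Cyp4a12b* are too small to see.

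A ratio of 2 genes within a library does not depend on how libraries are scaled, so the members were also compared with each other. The ratio of *Cyp4a10* to *Cyp4a14* in FPKM was 4.43, 6.77 and 4.68 in KPF replicates 1, 2 and 3. In WPF it was 1.69, 2.56 and 2.05. The groups did not overlap, and the spread within each was small although both genes varied several-fold between dams. The mean log2 ratio was 2.38 ± 0.33 (SD, n = 3) in KPF and 1.05 ± 0.30 (SD, n = 3) in WPF, a difference of 1.33 with an exact two-sided permutation p of 0.1, the smallest that 3 against 3 can give. The difference was 1.14 without KPF replicate 2 and 1.32 without WPF replicate 4. This pair was singled out after its values were seen. It was the only 1 of the 28 pairs of tested members without overlap (3.57%), whereas 15.7% of all pairs of tested genes had ratios without overlap, so a pair of this kind is not unusual in these libraries, and adjusted over the 28 pairs the exact p was 1. *Cyp4a14* shares no 100-base window with another gene, and of the windows of *Cyp4a10* 12.2% are shared.

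**Figure D4:**
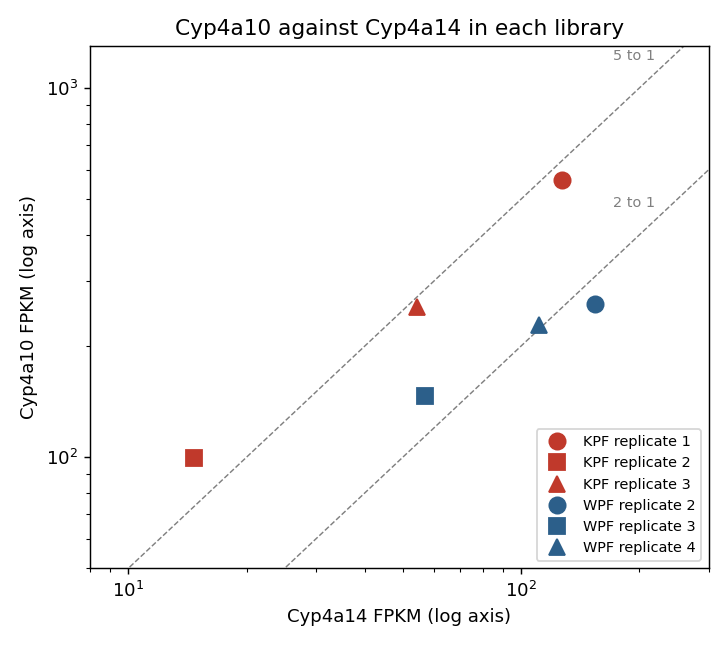
*Cyp4a10* against *Cyp4a14* in FPKM on log axes, 1 point per library, with dashed lines at ratios of 2 to 1 and 5 to 1. The 3 KPF points (red) lie along the upper line, with ratios between 4.43 and 6.77, and the 3 WPF points (blue) near the lower one, between 1.69 and 2.56.

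The genes whose log2 CPM followed *Cyp4a14* most closely over the 6 libraries were *Scaf11* (Pearson r = 0.996), *Ubxn2a* (0.976), *Mpc1-ps* (0.964), *Cct6a* (0.960) and *Psmf1* (0.959), and 50 tested genes had an r over 0.9. Those closest to *Cyp4f14* were *Cep85l* (0.990), *Lmo2* (0.977), *Lrtm1* (0.972), *Fhit* (0.972) and *Sirt6* (0.972), with 64 genes over 0.9. These values describe a likeness over 6 libraries, and no p is given. *Cyp4a14* was lowest in KPF replicate 2, and *Cyp4f14* was low in KPF replicate 1 and WPF replicate 2. *Scaf11*, the closest, varied far less than *Cyp4a14* itself, between 30.5 CPM in KPF replicate 2 and 44.7 CPM in WPF replicate 2.

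Of the other 10 *Cyp4* genes in the table that are neither pseudogenes nor antisense, 2 were tested and neither was called: *Cyp4f17* had a log2 fold change of -0.24 (SE 0.25, adjusted p = 0.746) and *Cyp4b1*, better known from lung, of -0.21 (SE 0.64, adjusted p = 0.917) in edgeR. *Cyp4f16*, *Cyp4f18*, *Cyp4f39* and *Cyp4x1* had reads but were below the FPKM minimum, and *Cyp4a29*, *Cyp4a30b*, *Cyp4f37* and *Cyp4f40* had 0 reads in all 6 libraries. *Cyp4f16*, just below the minimum at a mean of 0.93 FPKM, had between 22 and 46 reads in every library.

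Electrons reach P450 enzymes through P450 reductase (*Por*) and cytochrome b5, and their heme depends on *Alas1*, the first enzyme of heme synthesis. Of 6 such genes, 1 was called higher and 0 lower in KPF, with a median log2 fold change of -0.33. *Alas1* was counted at 173, 708 and 64.0 CPM in KPF versus 63.0, 56.0 and 122 CPM in WPF (log2 fold change 1.98, SE 0.81, adjusted p = 0.453 by edgeR). Its highest library by far was KPF replicate 2, the one with muscle markers, whose part in the call was not tested. *Por* was also highest there, at 385 CPM against 67.2 to 241 CPM in the other 5 libraries.

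Of the 8 dehydrogenases that oxidise omega-hydroxy acids further, none was called in either direction, and the median log2 fold change was -0.09. *Aldh3a2*, the fatty aldehyde dehydrogenase, was counted at 128, 132 and 148 CPM in KPF versus 139, 118 and 207 CPM in WPF. The smallest p was that of *Adh5*, an alcohol dehydrogenase that also handles formaldehyde, at a log2 fold change of -0.48 (SE 0.25, adjusted p = 0.514 by edgeR).

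Of 18 genes of peroxisomal dicarboxylic acid oxidation, 16 were tested and 0 were called, with a median log2 fold change of -0.19. *Crot*, the peroxisomal carnitine octanoyltransferase, had the smallest p, with 131, 116 and 153 CPM in KPF and 98.3, 101 and 88.7 CPM in WPF (log2 fold change 0.48, SE 0.22, adjusted p = 0.480 by edgeR). Its groups did not overlap, but the change was under 1.5-fold. *Ehhadh*, the bifunctional enzyme that shortens dicarboxylic acids, is named for its values, which were seen first. It was counted at 158, 17.2 and 34.7 CPM in KPF versus 62.4, 33.1 and 43.7 CPM in WPF, so KPF replicate 1 was highest and KPF replicate 2 lowest, the order that *Cyp4a10*, *Cyp4a14* and *Cyp4a31* had. *Acot6*, below the FPKM minimum, shared that order at 3.81, 1.06 and 2.02 CPM in KPF. No tested gene of the list other than *Ehhadh* did. *Acaa1b*, a peroxisomal thiolase, was at 201, 670 and 226 CPM in KPF, and *Acot3*, a peroxisomal acyl-CoA thioesterase, at 34.9, 138 and 44.0 CPM, both highest in KPF replicate 2.

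Of 30 other PPARα targets, 26 were tested, 0 were called higher and 1 lower, with a median log2 fold change of 0.01 against 0.02 over all tested genes. *Fabp1*, the liver fatty acid-binding protein, was the one called lower, with 1373, 877 and 1757 CPM in KPF and 2659, 2564 and 3456 CPM in WPF (log2 fold change -1.11, SE 0.34, adjusted p = 0.430 by edgeR). Its groups did not overlap. *Acot1*, a cytosolic acyl-CoA thioesterase, was counted at 32.2, 5.91 and 8.07 CPM in KPF versus 5.72, 2.39 and 9.64 CPM in WPF (log2 fold change 1.37, SE 0.73, adjusted p = 0.525 by edgeR). *Plin2* (-0.91, SE 0.39), a lipid droplet coat protein, and *Cyp2j9* (-1.09, SE 0.48) did not pass. Of the genes named from this list, *Acot1* and *Plin2* had the order of *Ehhadh* in the KPF libraries, and *Fabp1* and *Cyp2j9* did not. In this list 13 estimates were positive and 13 negative.

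PPARα itself (*Ppara*) was counted at 11.9, 11.5 and 9.42 CPM in KPF versus 5.20, 3.72 and 22.5 CPM in WPF, where WPF replicate 4 was the highest of all libraries (log2 fold change 0.05, SE 0.63, adjusted p = 0.979 by edgeR). Of 12 genes of PPARα and its partners, 0 were called higher and 1 lower. That gene was *Lpin1*, a phosphatidate phosphatase that also acts as a coactivator, with 11.3, 23.0 and 5.96 CPM in KPF and 58.8, 70.4 and 30.6 CPM in WPF (log2 fold change -1.98, SE 0.52, adjusted p = 0.430 by edgeR), and its groups did not overlap.

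Because some *Cyp4* genes differ between the sexes under growth hormone, lists of sex-biased genes were read beside them. Of 8 tested male-biased genes 0 were called. Of 12 female-biased genes 2 were called higher and 1 lower: *Cyp2b13* (log2 fold change 2.01, SE 0.68), *Sult3a1* (0.87, SE 0.33) and *Cyp2a4* (-1.25, SE 0.28), with adjusted p of 0.430, 0.434 and 0.415 in edgeR. *Cyp2a4*, a steroid hydroxylase, was at 391, 417 and 571 CPM in KPF versus 1017, 988 and 1284 CPM in WPF, without overlap. *Cyp2b13* was at 167 CPM in KPF replicate 2 and between 13.8 and 43.2 CPM in the other 5 libraries. Of 9 genes of the growth hormone signal 1 was called higher, the repressor *Bcl6* (0.83, SE 0.33, adjusted p = 0.450 by edgeR).

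Of 20 listed genes of eicosanoid metabolism, the other use of CYP4 substrates such as arachidonic acid, 12 were tested, 0 were called higher and 1 lower. That gene was *Cyp2c29*, an arachidonic acid epoxygenase (log2 fold change -1.28, SE 0.55, adjusted p = 0.461 by edgeR). Over the lists of the pathway around the members, 4 genes were called higher and 4 lower in all, out of the tested genes given with each list. Over all tested genes the shares were 5.83% higher and 3.98% lower. The counts for the pathway lists were 2 and 7 without KPF replicate 2, where 545 and 477 of all 10745 tested genes were called higher and lower. They were 10 and 8 without WPF replicate 4, where 618 and 533 of all 10741 were called.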

How the data were processed

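Poly(A) RNA of liver from 3 KPF and 3 WPF dams was sequenced by the authors. They deposited 1 table with raw read counts per Ensembl gene and FPKM values. Per the labels, the submitters' processing notes name cutadapt 1.9.1, HISAT2 2.2.1, HTSeq 0.6.1, DESeq2 and the build GRCm39. The strand setting and the treatment of reads with several places are not given in the sources used here. The FPKM values deposited by the authors divide the counts by exonic length and library total. Symbols were matched for 52073 of 56691 gene IDs, from the GENCODE annotation, whose coordinates were not used.

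Counts were compared with edgeR 4.0.16 (R 4.3.3, TMM, quasi-likelihood test, Benjamini-Hochberg over 10866 genes whose FPKM averaged 1 or more). Replicates are separate samples in the labels, and the study calls them biological. The main fit had no block. The replicate numbers 2 and 3 occur in both groups but mark different dams. Ratios used FPKM, the exact permutation test used log2 of TMM-scaled CPM with 0.5 added, and 3 dams against 3 cannot go below p = 0.1. Alternatives used DESeq2 1.42.0, limma 3.58.1 on log2(FPKM + 1) and log2(FPKM + 0.1), other scalings and filters, and single libraries left out. The steps were tested on simulated data. The genes named are the 10 members, the other *Cyp4* genes, *Mlxipl*, genes with the smallest p of each list, and those most like *Cyp4a14* and *Cyp4f14*. A few more were chosen after their values were seen (*Ehhadh*, *Acaa1b*, *Acot3*, *Acot6*, *Por*, *Aldh3a2*, *Ppara*, *Des* and *Lrat*). Members and lists were chosen with earlier results of these data known. Protein sequences were not used here, so the planned comparison of proteins was made on coding sequence.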

Additional observations from a re-analysis of the deposited data

How the results depend on the processing

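No member had an adjusted p under 0.05 in any of the 15 alternatives, and *Cyp4a14*, *Cyp4a32*, *Cyp4f13* and *Cyp4f14* kept their sign in all of them. Of 105 counts recomputed, 63 stayed within 1.5 times of the main value and 42 did not; the cause was not tested. Without 1 library, members called ranged from 0 to 1 higher (*Cyp4a10*, without KPF replicate 2) and from 0 to 1 lower (*Cyp4a32*, without WPF replicate 3). All genes called ranged from 331 (without WPF replicate 3) to 922 (without KPF replicate 3) higher and from 245 to 712 lower with the same libraries left out. Genes with an adjusted p under 0.05 ranged from 0 to 5 (without WPF replicate 4), and pathway list genes called from 0 (without WPF replicate 2 or 3) to 10 (without WPF replicate 4) higher and from 3 to 12 (without KPF replicate 3) lower. The log2 fold change without 1 library ranged from -0.11 to 1.05 for *Cyp4a10*, -0.45 to 1.76 for *Cyp4a12a*, -1.79 to 3.39 for *Cyp4a12b*, -1.50 to -0.11 for *Cyp4a14*, -0.29 to 0.83 for *Cyp4a31*, -2.04 (without KPF replicate 3) to -0.70 (without WPF replicate 2) for *Cyp4a32*, 0.098 to 0.41 for *Cyp4f13*, 0.032 to 0.53 for *Cyp4f14*, -0.022 to 0.84 for *Cyp4f15* and -0.13 to 0.57 for *Cyp4v3*, with the lower end without KPF replicate 1 for the *Cyp4a* genes other than *Cyp4a32*, and without KPF replicate 2 for *Cyp4f15* and *Cyp4v3*. Other settings moved counts as follows. DESeq2 gave 156 genes with an adjusted p under 0.05 and 7 pathway list genes lower. Scaling by library totals moved the median of all genes to -0.12 and gave 371 genes higher and 716 lower, so that 34.1% of calls were higher against 59.5%, with 1 pathway list gene higher and 9 lower. With no filter, 286 genes had an adjusted p under 0.05, 1576 were called higher and 910 lower, with 1 member (*Cyp4a32*) lower and 8 and 13 pathway list genes higher and lower. A minimum of 5 FPKM gave 255 higher and 205 lower, with 2 and 2 pathway list genes; edgeR's own filter gave 7 of these lower. On log2(FPKM + 1) limma gave 237 genes higher (30.5% of calls), with 0 and 11 pathway list genes, and log2 fold changes of -0.23 for *Cyp4a31* and -0.044 for *Cyp4v3*. On log2(FPKM + 0.1) it gave 288 higher and 700 lower (29.1% of calls higher), with 1 and 12 pathway list genes, and -0.30 and -0.055 for the same members.

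The replicate number as a block called 2 members higher, *Cyp4f15* (0.84, unadjusted p = 0.0324) and *Cyp4v3* (0.77, unadjusted p = 0.0289), with adjusted p of 0.379 and 0.367 in edgeR, and 15 and 11 pathway list genes higher and lower. *Cyp4a10* (-0.24), *Cyp4a31* (-0.58) and *Cyp4a12b* (-2.42) reversed in it. The numbers mark different dams. KPF replicate 1 and WPF replicate 4 have no same-numbered library in the other group. The contrast in this fit therefore rests on replicates 2 and 3 of each group. Same-numbered libraries did not deviate together over all tested genes (correlation of deviations from the group means 0.044 for number 2 and -0.016 for number 3). Whether they shared a batch was not tested. Depth limits *Cyp4a12a* (1 to 16 reads) and *Cyp4a12b* (0 to 3 reads) most.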
